A study of Mus musculus with 10 samples.

Results

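The genes examined were the Wnt ligands, their Frizzled and Lrp receptors, the R-spondins, the Dkk and Sfrp inhibitors, and 6 nuclear effectors and target genes. They were picked by gene symbol alone, which gave 49 of the 21868 genes of the count table. These were 19 ligands, 12 receptors, 4 R-spondins, 8 inhibitors and 6 effectors or targets. The cells were mouse embryonic stem cell derivatives sorted for Flk1, the VEGF receptor encoded by Kdr, from embryoid bodies grown without leukaemia inhibitory factor, and the labels call them hemangioblast equivalents. WT cells were Ldb1+/+ and KO cells were Ldb1-/-, labelled as lacking both copies of the gene for the adaptor protein Ldb1, and neither genotype carries another stated allele or treatment. Each genotype had 4 RNA libraries, and the day of the embryoid bodies and the number of cell clones are not given for them. Each genotype comes from its own cells, so an effect of Ldb1 loss and another difference between the cells cannot be told apart. Ldb1 itself stood at 103.9, 105.7, 109.9 and 116 CPM in the WT libraries and 95.8, 96.4, 79.7 and 80.5 CPM in the KO libraries (log2 fold change -0.30, SE 0.15, edgeR adjusted p = 0.41). CPM are counts per 1000000 after TMM scaling. Which bases are deleted is not given, so a total over the whole gene does not check the genotype, and the libraries are called WT and KO as labelled.

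Wnt proteins are secreted, lipid-modified ligands that bind Frizzled receptors together with Lrp5 or Lrp6. In the canonical branch this stops the breakdown of beta-catenin, which then joins the DNA-binding factors of the TCF and LEF family at target genes such as Axin2 and Sp5. In the mouse embryo Wnt3 is required for the primitive streak, from which the Flk1+ mesoderm that gives rise to blood and endothelium emerges, and Dkk1 is an antagonist that blocks the Lrp co-receptors.

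The mean chi-square per gene between libraries 1 and 2, and between 3 and 4, was 1.065 to 1.101 over the 4 pairs, close to the sampling noise of 1. Such pairs were counted as 1 sample each, named A (libraries 1 and 2) and B (libraries 3 and 4), so n = 2 per genotype, with 22674679 to 26775787 reads per sample. The labels do not say whether these samples are separate cultures, and p-values measure only the spread between these samples. The 2 WT samples stood apart. Of 11 primitive streak genes, 8 were at least 4-fold higher in WT B than in WT A, and of 12 pluripotency genes, 6 were at least 4-fold lower. Summed levels of the streak genes were 62.8 CPM in WT A, 328.9 CPM in WT B, 111.0 CPM in KO A and 67.0 CPM in KO B. Summed levels of the pluripotency genes were 2229, 625, 1039 and 1312 CPM in the same order. The sort marker gene Kdr was present in every sample, at 439.5 and 605 CPM in the WT samples and 236 and 78.6 CPM in KO. WT A and WT B are therefore shown apart for the Wnt genes.

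Among the 12 ligand genes tested, Wnt3 and Wnt5a had the widest gaps between the 2 WT samples. Wnt3, the ligand of the primitive streak, stood at 1.89 and 3.13 CPM in WT libraries 1 and 2 and at 33.6 and 36.5 CPM in WT libraries 3 and 4. Its KO libraries 1 to 4 stood at 5.22, 6.69, 7.55 and 7.52 CPM, above WT A and far below WT B. WT B was 13.9-fold above WT A (95% counting interval 10.7 to 18.4), and KO B was 1.26-fold above KO A (1.01 to 1.58). Wnt5a, a ligand best known for signalling without beta-catenin, stood at 5.17 and 4.49 CPM in WT libraries 1 and 2 and at 41.5 and 42.4 CPM in WT libraries 3 and 4. Its KO libraries, at 9.14, 7.21, 5.74 and 5.73 CPM, again lay between the WT samples. In WT it was 8.69-fold higher in B (7.16 to 10.7) and in KO it was 0.703-fold (0.563 to 0.876). These intervals are exact binomial and cover counting error only. Fewer cells that transcribe a gene and less RNA per cell cannot be told apart in such bulk samples.

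Wnt2b, a further canonical ligand, followed the same order at a lower level, with 1.03 and 1.02 CPM in WT libraries 1 and 2, 6.54 and 6.07 CPM in WT libraries 3 and 4, and 2.0, 2.15, 3.46 and 2.40 CPM in KO libraries 1 to 4. Its RefSeq gene model overlaps that of St7l, so its reads are uncertain. Wnt2 was nearly confined to WT B, with 63 and 47 reads in WT libraries 3 and 4, 2 and 1 reads in WT libraries 1 and 2, and 2, 5, 0 and 1 reads in KO. That made WT B 32.4-fold above WT A, with a counting interval from 10.8 to 159.6. Wnt9b, the neighbour of Wnt3, had 33 and 32 reads in WT libraries 3 and 4 and 1 to 5 reads in each of the others. Its RefSeq gene model overlaps that of Wnt3, so reads could be shared between them. Wnt2 and Wnt9b had too few reads outside WT B to enter the test of KO against WT.

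Dkk1, Sp5 and Axin2 showed the same order of samples. Dkk1 stood at 1.21 and 0.931 CPM in WT libraries 1 and 2, at 15.8 and 15.1 CPM in WT libraries 3 and 4, and at 3.31, 2.92, 1.81 and 2.09 CPM in KO. WT B exceeded WT A 14.4-fold (9.64 to 22.6). Sp5, a zinc-finger factor gene activated directly by Wnt signalling, stood at 0.689 and 0.677 CPM in WT libraries 1 and 2 and at 7.91 and 10.6 CPM in WT libraries 3 and 4. Its KO libraries, at 2.09, 4.29, 3.30 and 5.04 CPM, lay between them. Axin2, a feedback inhibitor widely read as a reporter of beta-catenin signalling, stood at 8.69 and 8.13 CPM in WT A, 32.0 and 27.9 CPM in WT B and 15.7, 16.7, 20.6 and 19.8 CPM in KO. For Axin2 the KO libraries did not overlap either WT sample and lay between the 2.

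Lef1, a DNA-binding partner of beta-catenin, was 2.56-fold higher in WT B than in WT A (2.28 to 2.89), at 39.2 and 41.9 CPM against 15.2 and 16.5 CPM. Its KO A libraries, at 16.4 and 17.9 CPM, lay near WT A, and its KO B libraries, at 11.1 and 11.7 CPM, lay below both WT samples. Rspo3, a secreted amplifier of Wnt signals, stood at 16.2 and 14.5 CPM in WT A, 57.2 and 56.4 CPM in WT B, 6.79 and 6.26 CPM in KO A and 2.67 and 2.48 CPM in KO B. Unlike Wnt3 and Wnt5a, Rspo3 was lower in every KO library than in every WT library.

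**Figure D1:**
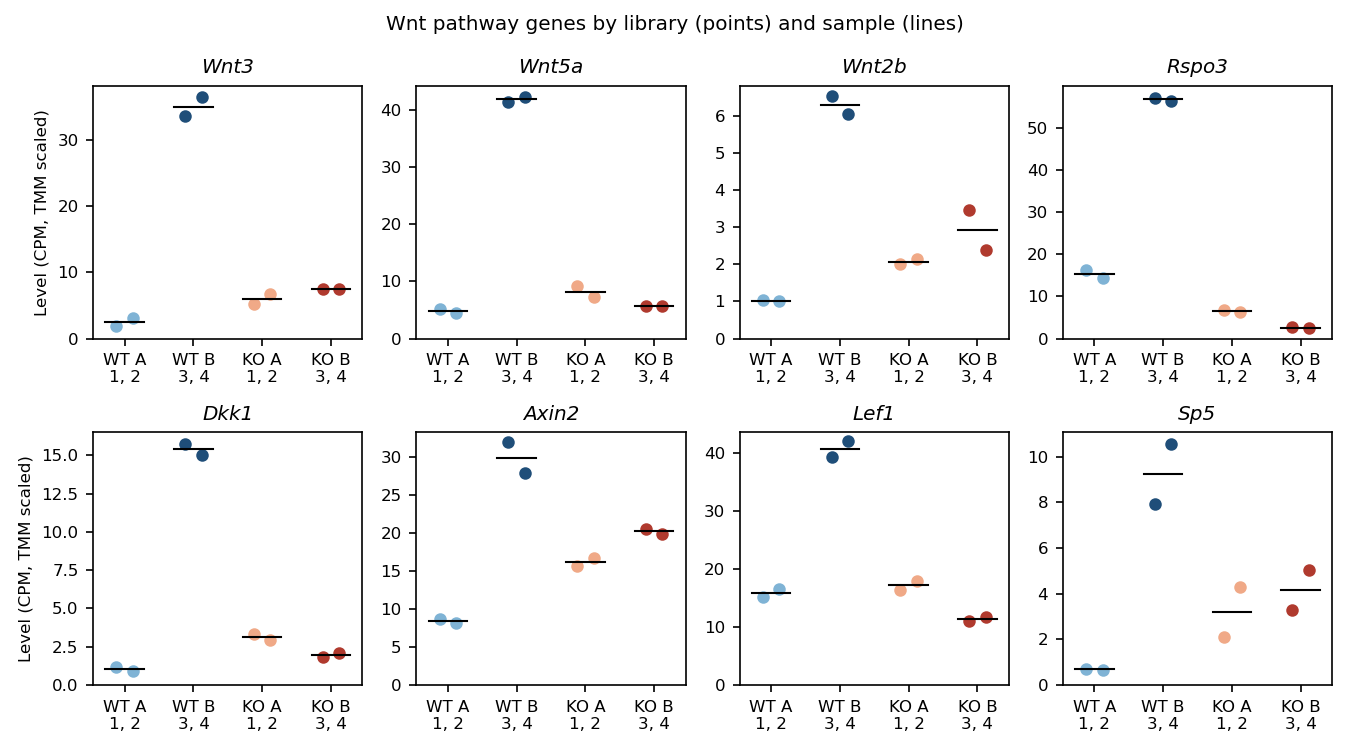
Levels in CPM (vertical axis, from 0) of 8 Wnt pathway genes in each library (points) and in each summed sample (black lines), for WT A, WT B, KO A and KO B. All 8 genes are highest in WT B, and the KO libraries of Wnt3, Wnt5a, Wnt2b, Dkk1, Axin2 and Sp5 lie between WT A and WT B.

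Counted over the 42 genes that passed the filter on low counts, 5 were at least 4-fold higher in WT B than in WT A, namely Wnt3, Wnt5a, Wnt2b, Dkk1 and Sp5, and 0 were 4-fold lower. Over all 16785 genes tested the shares were 0.953% higher and 1.63% lower. At 2-fold, 11 were higher and 4 lower in WT B, beside 3.68% and 5.73% of all genes. The 4 lower ones were the inhibitor genes Sfrp2 and Sfrp4, the ligand gene Wnt7b and the receptor gene Fzd9. In KO, 0 of the 42 differed 4-fold between samples B and A, beside 0.0834% higher and 0.143% lower of all genes. There Dkk3, Wnt7a, Wnt9a and Fzd9 were at least 2-fold higher in B and Rspo3 and Sfrp5 at least 2-fold lower, beside 1.39% and 2.13% of all genes. With 1 sample on each side these differences have no replicate check. In KO, 7 of the 11 streak genes were at least 2-fold lower in B. The median log2 difference of B minus A was -1.65 in KO and 2.30 in WT for the streak genes. For the 42 Wnt genes it was -0.04 in KO and 0.42 in WT. The 5 Wnt genes past 4-fold in WT went the same way as most streak genes and opposite to most pluripotency genes. The 9 paraxial and cardiac mesoderm genes tested were all higher in WT B too. The summed level of those genes was 29.5 CPM in WT A, 272 CPM in WT B, 33.8 CPM in KO A and 25.6 CPM in KO B. Of these 9, 4 were at least 4-fold higher in WT B, and Msgn1 of the same list had 0 reads in WT A, KO A and KO B. The part of such cells in the Wnt result was not tested.

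**Figure D2:**
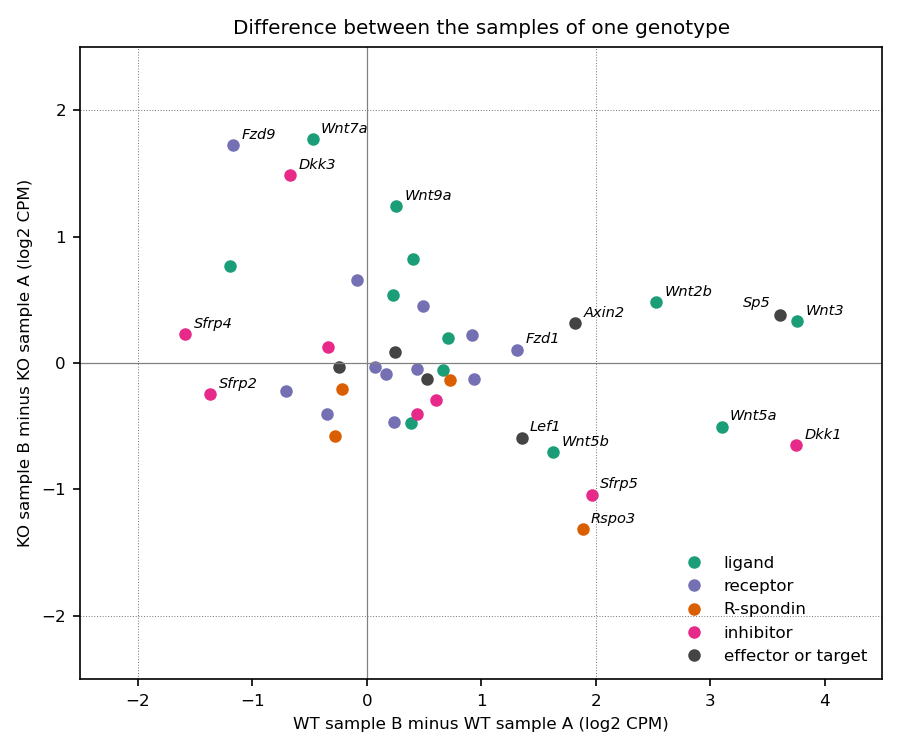
Difference between samples B and A in log2 CPM, in WT (horizontal) and in KO (vertical), for the 42 genes tested, coloured by role, with dotted lines at 4-fold. Sp5, Wnt3, Dkk1, Wnt5a and Wnt2b lie beyond the 4-fold line in WT, and no gene does in KO.

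The bases before the annotated start of 4 of these 5 genes are shown because the genes moved together between the WT samples. Wnt5a had no entry in the promoter table. Each line gives 250 bases upstream of the start from RefSeq on GRCm38.p6, in the direction of the gene, with matches to the TCF/LEF core written as CTTTGAT or CTTTGTT on either strand in capitals.
Wnt3, chr11:103773925-103774174, plus strand: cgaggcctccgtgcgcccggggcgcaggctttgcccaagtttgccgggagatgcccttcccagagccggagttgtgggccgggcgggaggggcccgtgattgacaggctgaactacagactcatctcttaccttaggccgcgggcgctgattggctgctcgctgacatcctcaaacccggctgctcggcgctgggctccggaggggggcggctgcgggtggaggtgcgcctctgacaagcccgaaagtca
Wnt2b, chr3:104961710-104961959, minus strand: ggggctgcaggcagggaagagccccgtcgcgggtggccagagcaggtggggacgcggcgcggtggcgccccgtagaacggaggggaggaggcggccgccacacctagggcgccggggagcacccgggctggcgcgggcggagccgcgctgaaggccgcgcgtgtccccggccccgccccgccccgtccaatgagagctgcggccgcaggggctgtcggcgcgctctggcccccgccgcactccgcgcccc
Dkk1, chr19:30549497-30549746, minus strand: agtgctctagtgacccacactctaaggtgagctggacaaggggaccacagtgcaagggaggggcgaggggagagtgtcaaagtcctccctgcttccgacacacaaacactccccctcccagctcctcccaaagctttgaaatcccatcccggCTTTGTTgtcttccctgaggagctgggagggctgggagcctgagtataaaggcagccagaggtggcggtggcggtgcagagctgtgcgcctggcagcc
Sp5, chr2:70474673-70474922, plus strand: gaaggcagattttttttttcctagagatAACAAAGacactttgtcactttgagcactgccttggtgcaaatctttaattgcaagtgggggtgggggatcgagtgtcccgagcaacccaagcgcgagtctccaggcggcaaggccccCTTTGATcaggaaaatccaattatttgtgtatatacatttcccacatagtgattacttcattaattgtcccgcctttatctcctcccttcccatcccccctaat
Sp5 held 1 match of each form, CTTTGAT from 104 to 98 bases before the start and CTTTGTT on the opposite strand from 222 to 216. Dkk1 held CTTTGTT from 98 to 92 bases before the start. Wnt2b and Wnt3 held 0 matches in these windows. Of the 32851 RefSeq promoter windows of this length, 3.21% held CTTTGAT and 5.03% held CTTTGTT. Among the 41 windows of 33 of the 49 genes, 3 held the first form (Sp5, Wnt11 and Wnt5b) and 4 the second (Sp5, Dkk1, Fzd7 and Tcf7l2). Other forms of the core were not searched. A match describes letters and is not evidence of binding.

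The summed ligand level was close in WT B and KO B, but it was made up of different genes. Per kb of transcript length (RPKM, TMM scaled), the 19 ligands summed to 14.0 in WT A, 39.1 in WT B, 25.5 in KO A and 41.9 in KO B. In WT B, Wnt3 made up 29.4% and Wnt5a 25.1% of that sum. In KO B they made up 5.89% and 3.21%, while Wnt9a made up 27.9%, Wnt4 24.2%, Wnt7b 12.2% and Wnt7a 10.9%. In WT A and KO A, Wnt4 (24.9% and 27.3%) and Wnt9a (22.7% and 19.3%) were likewise the highest ligands. Wnt1, Wnt3a, Wnt10a, Wnt16 and Wnt8b were each under 1% of the sum in every sample. Of the 7 ligands left out of the test, Wnt1 had 3 reads in all 8 libraries together, the fewest of the 49 genes.

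**Figure D3:**
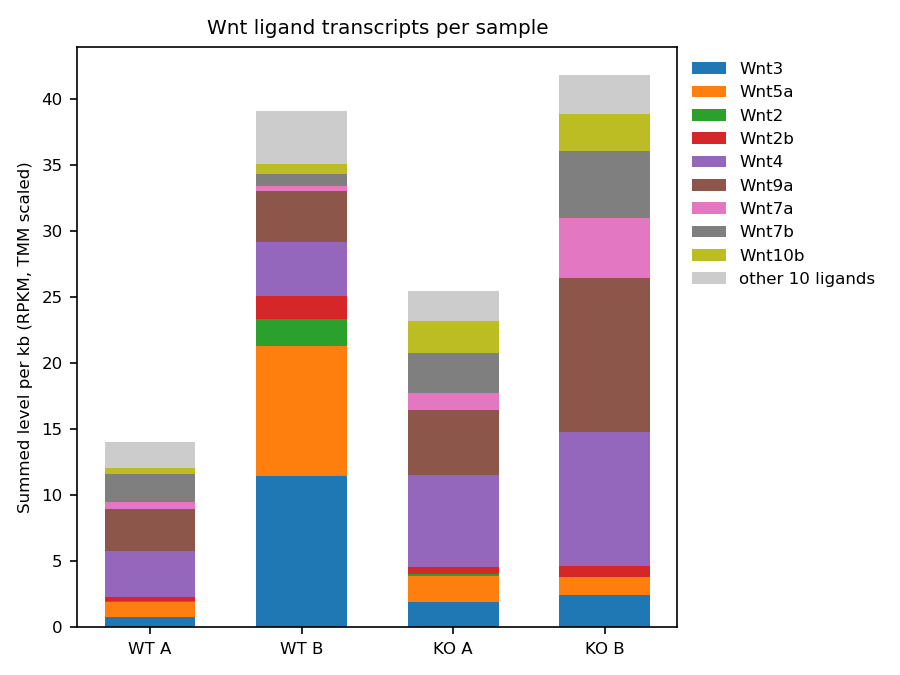
Summed level per kb (RPKM, from 0) of the 19 Wnt ligand genes in each sample, with 9 ligands in colour and the other 10 in grey. The WT B column is led by Wnt3 (11.5) and Wnt5a (9.81), and the KO B column by Wnt9a (11.7) and Wnt4 (10.1).

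Between the genotypes, another set of ligand genes stood apart. Wnt10b, Wnt7a, Wnt7b, Wnt4 and Wnt9a stood higher in every KO library than in every WT library. None of the 42 genes passed edgeR's quasi-likelihood test at an adjusted p of 0.05, where 31 of all 16785 genes (0.185%) did. At an unadjusted edgeR p under 0.05, 10 were higher and 5 lower in KO, beside 7.61% and 7.86% of all genes tested. These 10, and the counts below of genes with KO above WT, include Rspo2. It passed the filter on low counts only through its KO reads, so its direction was fixed by the filter. DESeq2 called 6 of them, 4 higher (Wnt10b, Wnt7a, Wnt4 and Lrp5) and 2 lower (Tcf7 and Sfrp1), beside 6.96% of all genes. The median log2 fold change of the 42 was -0.08, beside -0.01 for all genes tested. All KO libraries were above all WT libraries for 11 of the 42 (15.1% of all genes) and below them for 6 (13.8%). By sample, both KO samples lay between the WT samples for 13 of the 42 (17.2% of all genes), above both for 12 (23.2%), below both for 8 (22.4%) and in another order for 9 (37.2%). The log2 fold change was below 0 for 24 (51.3%). Summed levels of other cell type markers also differed between the genotypes. All 10 blood genes tested, of 12 listed, were lower in every KO library. They summed to 174.0 and 194.0 CPM in the WT samples and 9.16 and 6.60 CPM in KO, and Hbb-bh1 had 0 KO reads. A gene with almost no KO reads could pass the filter on low counts only through WT. For such genes the lower KO level was fixed by the filter. Of 10 mesenchyme and smooth muscle genes, 7 were higher in every KO library, summing to 1246 and 1783 CPM in the WT samples and 2877 and 4904 CPM in KO. Endothelial genes summed to 1381 and 1127 CPM in the WT samples and 831 and 368.5 CPM in KO. These sums include the sort marker gene Kdr, so they depend in part on the gene used for sorting. Of the 10 endothelial genes, 5 were lower in every KO library. Visceral endoderm genes summed to 149 CPM in WT A, 87.5 CPM in WT B, 62.2 CPM in KO A and 30.2 CPM in KO B, and 2 of 8 were lower in every KO library. Neuroectoderm genes summed to 284 CPM in WT A, 277 CPM in WT B, 477 CPM in KO A and 445 CPM in KO B, and 2 of 6 were higher in every KO library. Their median log2 fold change was 0.05, so the sum does not describe a typical gene of that list. The part of these cells in the Wnt differences was not tested.

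Wnt10b, a canonical ligand, stood at 0.689, 1.27, 1.45 and 1.87 CPM in WT libraries 1 to 4 and at 4.87, 5.83, 6.13 and 6.20 CPM in KO. The log2 fold change was 2.12 (SE 0.37, edgeR adjusted p = 0.108), and all KO libraries lay above all WT libraries. Wnt4 stood at 4.73, 4.83, 4.64 and 6.59 CPM in the WT libraries and 9.48, 9.52, 13.4 and 14.3 CPM in the KO libraries (log2 fold change 1.17, SE 0.28, edgeR adjusted p = 0.147). It is a ligand known from kidney and gonad development. Wnt7a had the largest positive fold change, at 1.55, 1.86, 0.989 and 1.42 CPM in the WT libraries and 3.57, 4.81, 13.4 and 15.5 CPM in the KO libraries (2.68, SE 0.68, adjusted p = 0.177). Its KO libraries were far apart, since KO B was 3.46-fold above KO A (2.76 to 4.37). Wnt7b, its close paralog, stood at 6.03, 7.28, 3.35 and 2.40 CPM in the WT libraries and 9.22, 9.44, 16.6 and 15.3 CPM in the KO libraries (1.41, SE 0.50, adjusted p = 0.282). Wnt9a stood at 11.5, 9.74, 13.0 and 12.3 CPM in WT, 17.4 and 15.4 CPM in KO A and 40.6 and 36.9 CPM in KO B (1.25, SE 0.44, adjusted p = 0.289). For each of these ligand genes the KO B libraries were the highest of all, by a narrow margin for Wnt10b.

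For the ligand genes that split the WT samples, the error of the same fit was wide. The log2 fold change of KO against WT was -1.48 for Wnt3 (SE 1.21, edgeR adjusted p = 0.673), -1.75 for Wnt5a (SE 1.06, adjusted p = 0.543) and -0.55 for Wnt2b (SE 0.87, adjusted p = 0.850). Of the remaining ligand genes tested, Wnt5b stood at -0.80 (SE 0.64), Wnt11 at -0.73 (SE 0.44), Wnt8a at 0.23 (SE 0.39) and Wnt3a at 0.27 (SE 0.51), and their KO and WT libraries overlapped. In WT A and WT B, Wnt5b stood at 1.15 and 3.74 CPM, Wnt11 at 1.32 and 1.77 CPM, Wnt8a at 0.896 and 1.47 CPM and Wnt3a at 0.299 and 0.415 CPM. The RefSeq gene model of Wnt5b overlaps that of Fbxl14, so its reads are uncertain. Wnt6, outside the test, had 26 and 17 reads in KO libraries 3 and 4 and 1 to 5 reads in each other library. Wnt10a had 0 to 7 reads per library, with the 4 and 7 of KO libraries 3 and 4 as the most. Wnt16 and Wnt8b had 0 to 5 reads per library.

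Of the 12 receptors, 3 stood higher and 2 lower in KO at an unadjusted edgeR p under 0.05, beside 7.61% and 7.86% of all genes. Lrp5, a Wnt co-receptor gene, stood at 139.5 CPM in WT A, 147.1 CPM in WT B, 202.4 CPM in KO A and 197.9 CPM in KO B (log2 fold change 0.48, SE 0.12, edgeR adjusted p = 0.161, DESeq2 adjusted p = 0.0188). Lrp6, its paralog, showed no such separation, at 56.7 CPM in WT A, 67.0 CPM in WT B, 69.2 CPM in KO A and 50.2 CPM in KO B (-0.05, SE 0.199). Fzd2 stood at 48.2, 53.0, 68.4 and 74.3 CPM in the WT libraries and 83.0, 89.1, 115.2 and 120.0 CPM in the KO libraries (0.74, SE 0.24, adjusted p = 0.235). Fzd6 stood at 16.9 CPM in WT A, 18.9 CPM in WT B, 26.5 CPM in KO A and 24.9 CPM in KO B (0.52, SE 0.16, adjusted p = 0.214). Both Fzd2 and Fzd6 were higher in every KO library. Fzd4, which also serves as the receptor of Norrin in vessels, stood at 10.4, 12.8, 7.08 and 7.11 CPM in the WT libraries and 4.09, 5.23, 3.54 and 4.42 CPM in the KO libraries (-1.11, SE 0.32, adjusted p = 0.192). The Fzd4 gene model overlaps that of Tmem135. Fzd5 stood at 20.5 CPM in WT A, 16.1 CPM in WT B, 12.1 CPM in KO A and 9.09 CPM in KO B (-0.79, SE 0.24, adjusted p = 0.200). Fzd4 and Fzd5 were lower in every KO library.

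Per kb, Fzd2 (38.4), Lrp5 (33.6) and Fzd7 (27.4) had the highest mean RPKM of the receptors over the 4 samples, and the 9 others lay between 0.50 (Fzd9) and 11.2 (Lrp6). Fzd7, a receptor of early mesoderm and stem cells, stood at 85.4 and 83.8 CPM in WT A, 163.0 and 160.3 CPM in WT B and 98.2 to 110.2 CPM over the KO libraries, so that KO lay between the WT samples. Fzd1 (-0.05, SE 0.450) and Fzd10 (0.02, SE 0.35) had the same order, at 8.37 and 20.9 CPM for Fzd1 and 6.83 and 12.9 CPM for Fzd10 in WT A and WT B. Fzd3 (6.45 and 8.76 CPM in WT A and WT B), Fzd8 (3.24 and 3.06 CPM) and Fzd9 (2.05 and 0.868 CPM) had log2 fold changes of -0.53, 0.36 and -0.78, and of these Fzd3 was lower in every KO library.

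The R-spondins, which stabilise Wnt receptors at the cell surface, went different ways. Rspo3 had the largest negative fold change of the 42 (log2 -2.99, SE 0.85, edgeR adjusted p = 0.231), with the library values given above. Rspo2 stood at 0.172, 0.0847, 0.380 and 0.150 CPM in the WT libraries and 0.696, 1.37, 1.10 and 0.775 CPM in KO, which rests on 10 reads in WT and 48 in KO (2.28, SE 0.51, adjusted p = 0.132). It passed the filter on low counts only through its KO reads, so its higher KO level was fixed by the filter. Rspo1 stood at 1.62 CPM in WT A, 1.32 CPM in WT B, 2.72 CPM in KO A and 1.79 CPM in KO B (0.62, SE 0.37). Rspo4 stood at 1.11, 0.944, 0.821 and 0.702 CPM in that order (-0.43, SE 0.38).

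Among the inhibitors, Sfrp1 stood out. It encodes a secreted decoy that binds Wnt ligands, and it stood at 36.5, 38.9, 57.4 and 57.7 CPM in the WT libraries and 24.0, 23.9, 19.9 and 19.2 CPM in the KO libraries (log2 fold change -1.13, SE 0.25, edgeR adjusted p = 0.132, DESeq2 adjusted p = 0.00308). All KO libraries were below all WT libraries. Sfrp2, a relative of similar function, was 0.386-fold in WT B relative to WT A (0.331 to 0.450), at 8.83 and 9.36 CPM against 21.4 and 25.7 CPM, and its KO libraries lay between, at 16.8 to 21.2 CPM (0.22, SE 0.47). Dkk1 had a log2 fold change of -1.71 (SE 1.26, adjusted p = 0.632). Dkk3 stood at 4.44 and 4.63 CPM in KO A and 14.1 and 11.7 CPM in KO B, on either side of WT A (8.88 CPM) and WT B (5.55 CPM). Dkk2, Dkk4, Sfrp4 and Sfrp5 had log2 fold changes between -0.48 and -0.08. Of these, Sfrp4 was higher in WT A (4.01 CPM) than in WT B (1.28 CPM), and Sfrp5 was lower in WT A (0.683 CPM) than in WT B (2.91 CPM). Both KO samples lay between the WT samples for Sfrp4 and Sfrp5. Dkk2 stood at 3.46 and 2.72 CPM and Dkk4 at 1.62 and 2.23 CPM in WT A and WT B.

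The TCF and LEF genes differed among themselves. Tcf7, also called Tcf1, stood at 157.8, 157.8, 135.7 and 131.6 CPM in the WT libraries and 89.1, 95, 91.2 and 88.7 CPM in the KO libraries (log2 fold change -0.68, SE 0.14, edgeR adjusted p = 0.121, DESeq2 adjusted p = 0.00274). All KO libraries were below all WT libraries. Its RefSeq gene model overlaps that of Skp1. Tcf7 lies on chromosome 11, whose 902 genes with a mean log2 CPM above 3 had a median of -0.47 in KO. With each chromosome's median removed, the value for Tcf7 was -0.21 (edgeR adjusted p = 0.629). Tcf7l1, which encodes mainly a repressor of Wnt targets in stem cells, stood at 81.0, 80.9, 94.0 and 97.9 CPM in the WT libraries and 114.6, 121.4, 124.0 and 127.2 CPM in the KO libraries (0.46, SE 0.14, adjusted p = 0.213). Tcf7l2 stood at 14.8 CPM in WT A, 21.3 CPM in WT B, 25.5 CPM in KO A and 23.4 CPM in KO B (0.44, SE 0.22). The RefSeq gene model of Tcf7l1 overlaps that of the non-coding gene Gm15401. The log2 fold change of Lef1 was -0.98 (SE 0.51), of Axin2 -0.08 (SE 0.63) and of Sp5 -0.43 (SE 1.17). Per kb, Tcf7 (mean 46.6 RPKM) and Tcf7l1 (37.8) exceeded Lef1 (5.85), Tcf7l2 (5.73), Axin2 (4.41) and Sp5 (2.06). Of the 49 genes, 7, Axin2 among them, lie on chromosome 11 and 2 on chromosome 8, whose median in KO was 0.25. With chromosome medians removed, Fzd2 on chromosome 11 went from 0.74 to 1.21, Wnt9a from 1.25 to 1.72 and Wnt3 from -1.48 to -1.01, and Sfrp1 on chromosome 8 from -1.13 to -1.38.

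**Figure D4:**
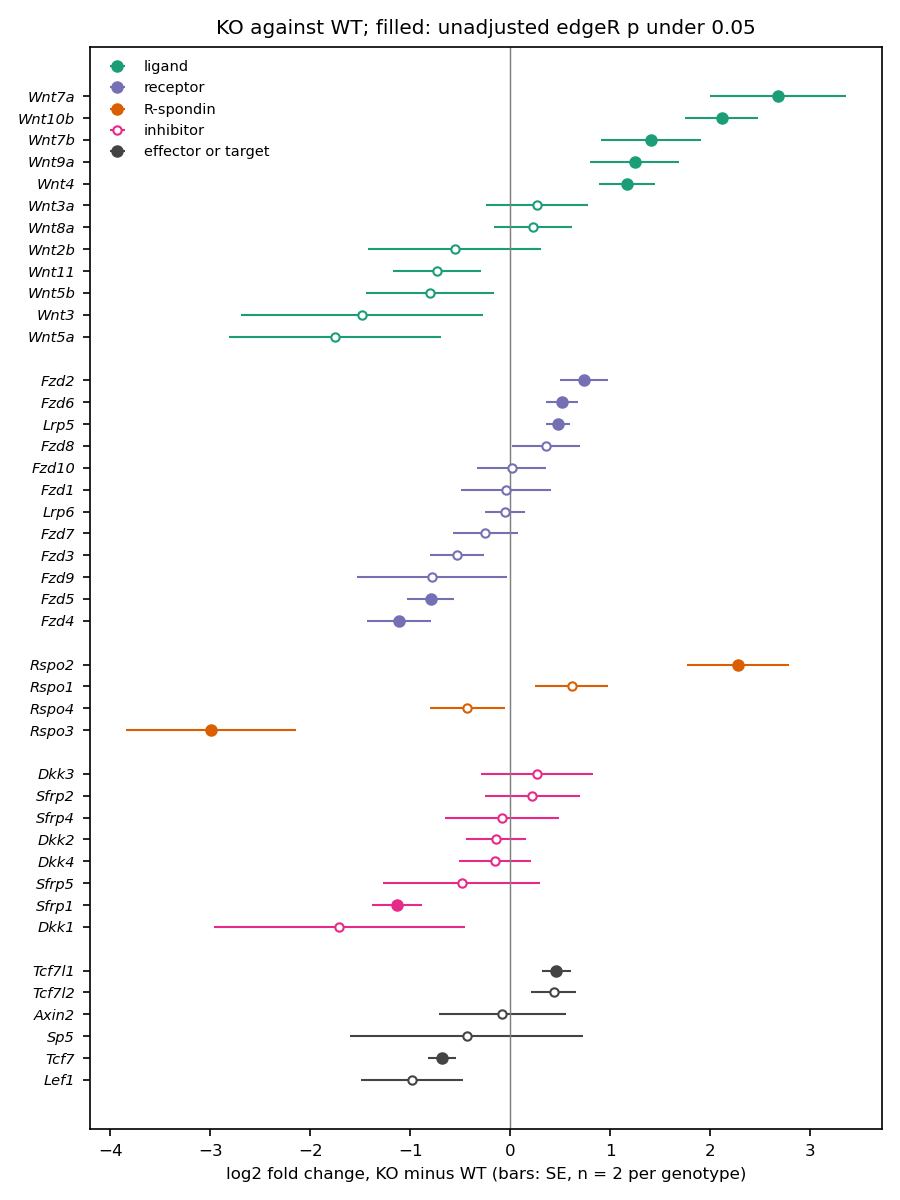
Log2 fold change of KO minus WT with its SE (horizontal axis, n = 2 samples per genotype) for the 42 genes tested, grouped by role. Filled points have an unadjusted edgeR p under 0.05, 10 above and 5 below 0, and none passed the adjusted threshold. Rspo2, among the 10, passed the filter on low counts only through its KO reads.

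The KO samples were also set against each WT sample alone. Such a fit takes the spread from the 2 KO samples and assumes that the single WT sample varies like them, and both fits share the KO samples. Over the 43 genes tested in both fits, 10 fell in KO against WT B and 3 rose at an edgeR adjusted p of 0.05, beside 8.93% of all genes (4.47% lower and 4.46% higher). Against WT A, 4 fell and 7 rose, beside 9.73% of all genes (5.75% lower and 3.98% higher). Wnt2 and Wnt9b entered the fit against WT B only through their reads in WT B, so their lower KO level there was fixed by the filter and is not counted. Rspo2, which is counted among the genes that rose against WT A, entered only through its KO reads. Its higher KO level was therefore fixed by the filter too. Wnt3 was lower in KO than in WT B (log2 fold change -2.38, SE 0.23, edgeR adjusted p = 1.02e-05) and higher in KO than in WT A (1.43, SE 0.37, adjusted p = 0.0275). Axin2, Fzd2, Tcf7 and Wnt3 lie on chromosome 11, whose median in KO was -0.47 in the fit of all 4 samples. Chromosome medians were not removed here. Axin2 likewise differed in opposite directions, at -0.72 (SE 0.22) against WT B and 1.12 (SE 0.26) against WT A. For Sp5 the values were -1.33 (adjusted p = 0.0175) and 2.43 (adjusted p = 0.0061). Wnt5a, at -2.60 (SE 0.24, adjusted p = 9.97e-06), and Dkk1, at -2.62 (SE 0.33, adjusted p = 0.00013), passed against WT B and not against WT A, where they stood at 0.53 and 1.24.

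Wnt10b and Sfrp1 passed in one direction against each WT sample. Wnt10b rose against WT A (log2 fold change 2.55, SE 0.44, edgeR adjusted p = 0.00216) and against WT B (1.79, SE 0.395, adjusted p = 0.00982). Sfrp1 fell against WT A (-0.79, SE 0.21, adjusted p = 0.0277) and against WT B (-1.41, SE 0.19, adjusted p = 0.000269). Tcf7 stood at -0.79 and -0.56, and Wnt4 at 1.29 and 1.05, in the same order. Tcf7 lies on chromosome 11, and in the fit of all 4 samples its value was -0.21 with chromosome medians removed. With a KO sample left out instead, neither Wnt10b (edgeR adjusted p = 0.386 without KO A and 0.716 without KO B) nor Sfrp1 (0.458 and 0.787) passed. Rspo3, at -1.75 and -3.66, passed in neither (adjusted p = 0.126 in both). Lef1 passed against WT B (-1.51, SE 0.245, adjusted p = 0.00266) and stood at -0.14 against WT A.

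**Figure D5:**
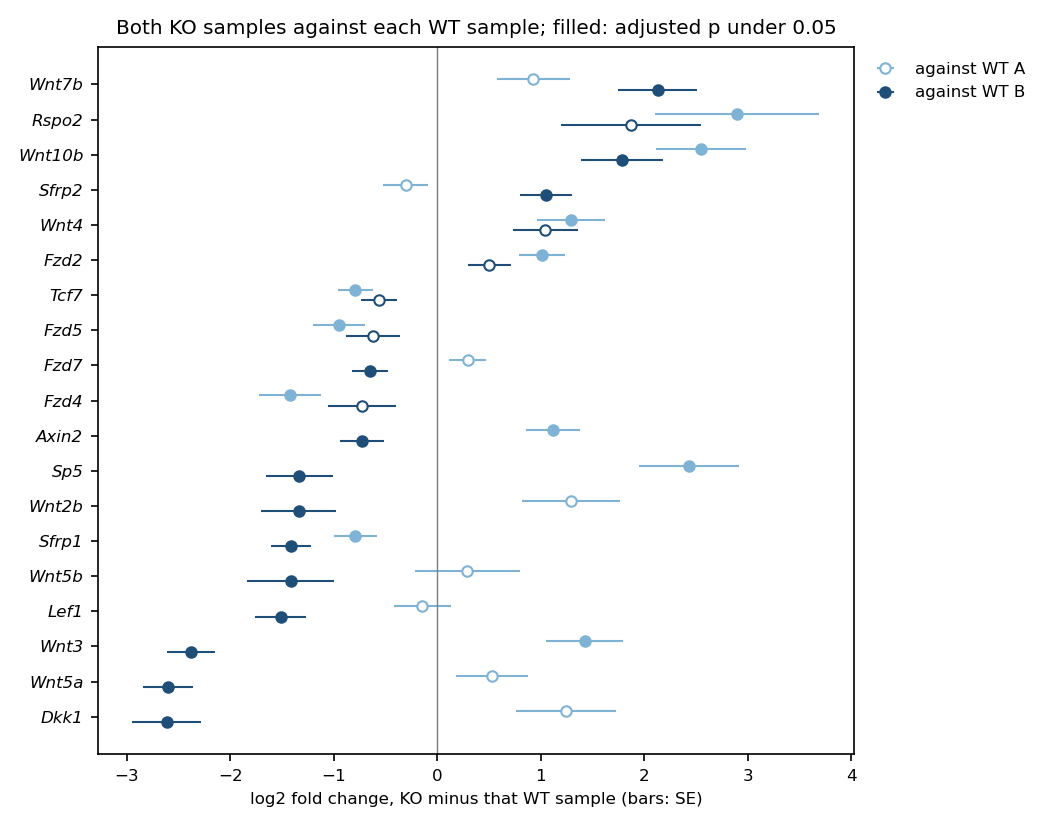
Log2 fold change with SE of both KO samples against WT A alone (light) and against WT B alone (dark) for the 19 genes tested in both fits that passed in at least 1 of them. Filled points passed an edgeR adjusted p of 0.05, and Wnt3, Axin2 and Sp5 are filled on both sides of 0. Chromosome medians were not removed, and Wnt3, Axin2, Tcf7 and Fzd2 lie on chromosome 11. Rspo2 passed the filter on low counts only through its KO reads.

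Beyond these 49 genes, a list of 89 other pathway genes was followed, of which 84 were tested. None passed edgeR with adjustment over all genes. Without adjustment, 12 (14.3%) stood higher and 5 (5.95%) lower at a p under 0.05, beside 7.61% and 7.86% of all genes tested. DESeq2 called 10, of which 7 were higher, beside 6.96% of all genes. The counts of the lists below are to be read against the same shares. The median log2 fold change was -0.03. Of 13 genes of planar cell polarity, the branch that orients cells in a sheet, and of Wnt calcium signalling, 4 were higher and 0 lower at that p. Prickle1, a core cytoplasmic component of planar cell polarity, stood at 38.0 and 40.3 CPM in the WT samples and 73.8 and 73.2 CPM in KO (0.91, SE 0.13, edgeR adjusted p = 0.0867). Celsr3, an atypical cadherin gene (1.28, SE 0.31), and Camk2d, a calcium-dependent kinase gene (0.72, SE 0.16), were also higher, while Intu, the most abundant of those above that p, stood at -0.10 (SE 0.15).

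Of 20 genes of beta-catenin stability, 1 was lower and 0 higher at an unadjusted edgeR p under 0.05, against 7.86% and 7.61% of all genes. That gene was Dvl2, a Dishevelled adaptor gene of chromosome 11, whose median is given above, at 132.6 and 119.0 CPM in the WT samples and 74.1 and 85.5 CPM in KO (-0.66, SE 0.14). Ctnnb1, which encodes beta-catenin itself, stood at 1030 and 1008 CPM in the WT samples and 1190 and 1213 CPM in KO (0.24, SE 0.12, adjusted p = 0.423). Among the 12 nuclear partners, Bcl9l, a co-activator gene, was higher (1.08, SE 0.27), and Ctbp2, a co-repressor gene, stood at 0.12 (SE 0.26). Of 11 co-receptor and receptor turnover genes, Lypd6 (1.27, SE 0.23) and Rnf43, a ubiquitin ligase gene that removes Frizzled receptors (1.18, SE 0.38), were higher and Lgr5, an R-spondin receptor gene (-0.82, SE 0.31), was lower. Ptk7, a pseudokinase co-receptor gene, was the most abundant of these and stood at 191.2 and 315.2 CPM in the WT samples and 342.9 and 433.3 CPM in KO (0.62, SE 0.28).

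Of 13 secretion and extracellular genes, the proteoglycan gene Gpc4 (1.00, SE 0.31) and the Dkk receptor gene Kremen1 (0.53, SE 0.204) were higher and the Lrp antagonist gene Sost (-3.23, SE 1.11) was lower. Kremen1 and Sost, and Rnf43 above, lie on chromosome 11, whose median was -0.47 in KO. Sost stood at 4.87 CPM in WT A and 0.642 CPM in WT B, and at 0.302 and 0.273 CPM in KO. It passed the filter on low counts only through its WT reads. Its lower KO level was thus fixed by the filter, though it is in the counts of lower genes above. Of 15 feedback and target genes, 3 were higher and 2 lower at an unadjusted edgeR p under 0.05, against 7.61% and 7.86% of all genes. Id2 (1.37, SE 0.45) and Dact1 (1.19, SE 0.43) were higher and the mesoderm factor gene Tbx6 (-1.12, SE 0.33) was lower, while Cd44 stood at 0.07 (SE 0.27).

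The gap between the WT samples reached this list too. It shares T and Cer1 with the streak list, Tbx6 and Msgn1 with the paraxial and cardiac list and Tbx3 with the pluripotency list. It is therefore not separate from those markers. Of the 84, 11 were at least 4-fold higher in WT B than in WT A and 1, Sost, was 4-fold lower, which is 13.1% and 1.19%, beside 0.953% and 1.63% of all genes. They included Wls, the carrier that brings Wnt ligands to the cell surface, at 32.6 CPM in WT A and 143.5 CPM in WT B, with 117.8 and 151.8 CPM in KO. Here the KO samples lay near WT B, in contrast to the ligand genes Wnt3 and Wnt5a. Gpc3, a proteoglycan gene and the most abundant of those secretion genes that stood above an unadjusted p of 0.05, was at 117.0 and 506.7 CPM in the WT samples and 94.5 and 102.1 CPM in KO. The extracellular inhibitor gene Apcdd1 stood at 6.91 and 66.1 CPM in the WT samples and 12.7 and 4.41 CPM in KO. Nkd1, a feedback inhibitor gene, stood at 2.77 and 14.4 CPM in the WT samples and 5.27 and 6.56 CPM in KO. Amer3, of the beta-catenin stability list, had the widest gap, at 0.384 and 30.1 CPM in the WT samples and 4.28 and 1.33 CPM in KO. Wls, Apcdd1, Nkd1 and Amer3 were named after their values were seen.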

How the data were processed

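RNA of Flk1-sorted WT and KO cells was sequenced in 4 libraries per genotype, and the authors deposited raw read counts per Ensembl gene with a transcript length, per the file headers. The submitters' processing notes name mm9 and DESeq. The sources used here do not give the aligner, counter, annotation release or strand setting. The Ldb1 peak list was not used. Of 21868 genes, 20362 were paired with a symbol, and GRCm38.p6 gene tables gave chromosomes, overlaps and promoters.

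Libraries 1 and 2, and 3 and 4, were summed after a chi-square comparison over genes with at least 20 reads. Library totals were 11258493 to 13483294 reads, and fewer reads widen the error of low genes. Counts were filtered (filterByExpr), scaled by TMM and tested with edgeR 4.0.16 (robust quasi-likelihood, Benjamini-Hochberg, threshold 0.05) in R 4.3.3. The fit was tested on simulated data. DESeq2 1.42.0 and other settings were alternatives. Differences between samples A and B are of log2 CPM with a prior count of 2, while ratios with intervals use the counts. Full values were given for genes averaging 1 CPM or more with an unadjusted p under 0.05 or a 4-fold gap between samples, and for the 2 most abundant per role. For each list of other pathway genes, the rule named up to 3 with the smallest p under 0.05 and the most abundant other one. Genes named beyond these rules were chosen after their values were seen. Members and lists were chosen with earlier results of these data known.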

Additional observations from a re-analysis of the deposited data

How the results depend on the processing

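Of all genes tested, the 31 past edgeR became 1168 with DESeq2, 151 with no filter on low counts, 3860 with 8 libraries as separate replicates, 5196 with these and the replicate block, 5 with the replicate block on the samples, and 0 to 1674 when 1 library or sample was left out. That count was 1537 if WT A was dropped, 1674 if WT B was, and 0 if KO A or KO B was (1704 and 1106 at an unadjusted edgeR p under 0.05), while single libraries gave 22 to 40. The Wnt genes past edgeR were 0, against 6 with DESeq2, 15 with 8 libraries, 18 with these and the block, and 0 to 15 with 1 left out (15 if WT A was dropped, with Wnt2 and Wnt9b past the filter through WT B alone, 11 if WT B was, 0 otherwise). The other pathway genes were 0, against 10, 1 without the filter, 23, 30 and 0 to 15. Rspo2, past the filter through KO alone, is among the Wnt genes past edgeR without WT B. If paired libraries repeat 1 sample, which the labels do not say, the counts with 8 libraries are too high. RLE scaling and removal of chromosome medians left the Wnt count at 0. The median log2 fold change of the Wnt genes ran from -0.245 to 0.528 with 1 left out, and was 0.088 with the replicate block. At 2-fold in place of 4-fold, 15 Wnt genes differed between WT samples and 6 between KO samples, and 0 to 1 KO genes passed 4-fold with 1 library left out (1 without KO library 2). The cause was not tested.

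Without WT sample B the log2 fold change turned to 1.24 for Dkk1, 0.297 for Fzd7, -0.305 for Sfrp2, 2.43 for Sp5, 1.29 for Wnt2b, 1.43 for Wnt3 and 0.53 for Wnt5a. The other ends of their ranges with 1 left out were -2.62 for Dkk1, -0.65 for Fzd7, 1.05 for Sfrp2, -1.33 for Sp5, -1.34 for Wnt2b, -2.38 for Wnt3 and -2.60 for Wnt5a. Sp5 also turned with the replicate block, to 0.371, and to 0.032 with 8 libraries and the block. The 2 samples share only a number in the labels, and their deviations from the genotype means correlated at -0.081 over genes. At this depth, genes with few reads such as Wnt1, Wnt8b and Wnt16 cannot show a difference.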
